A study of Mus musculus with 57 samples.

Results

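The 300 widest H3K27me3 domains of the cortex were chosen from the H3K27me3 peaks themselves. Overlapping peaks of the 9 cortex libraries on chromosomes 1 to 19 were merged into 50927 regions, of which 11827 held a peak in all 9 libraries. These 11827 regions were ranked by the median over the libraries of the width of the widest peak in the region, and the first 300 were kept. All values of cortex H3K27me3 in these domains are therefore descriptions of how they were chosen, and no test was made on them. H3K27ac, H3K4me3 and the gastrocnemius libraries took no part in the choice. The study profiled H3K4me3, H3K27ac and H3K27me3 by ChIP-seq in brain cortex (9 libraries per mark) and gastrocnemius muscle (10 libraries per mark) of PSAPP mice sacrificed at 13 months of age, 57 libraries in all. PSAPP mice are transgenic for a mutated human presenilin 1 and a chimeric mouse/human amyloid precursor protein, and are used as a model of Alzheimer's disease. Every mouse carried both transgenes, had been kept singly on a modified AIN-93 diet with a fixed daily ration since 6 months of age, and no non-transgenic mice were profiled, so no value here bears on the effect of the transgenes. The 9 mice with cortex libraries also gave gastrocnemius libraries. Mice of both sexes were used, but the sample labels do not give the sex of each, and the sexes were not compared here.

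H3K27me3 is written by Polycomb repressive complex 2 and is read by Polycomb repressive complex 1, and both complexes keep genes of other lineages and other developmental stages silent. Most marked genes carry a short patch around their start, whereas clusters of developmental regulators, above all the Hox clusters, can be covered from end to end. H3K4me3 marks the starts of genes that are active or poised, and H3K27ac, which uses the same lysine as H3K27me3 and cannot sit on it together with methylation, marks active promoters and enhancers. In the adult brain H3K27me3 is known to keep regulators of other cell types silent. A whole tissue holds many cell types, so a stretch with H3K27me3 and H3K27ac peaks in the same library may come from different cells or from different alleles, and bulk libraries cannot tell these apart.

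Polycomb domains are known for CpG-rich starts, and the starts of the widest domains are shown to let their CpG dinucleotides be seen. For each of the 5 widest domains with a gene in the RefSeq promoter table (GRCm38.p6, the same assembly as mm10), the gene closest to the middle of the domain among those in the table is given with the 250 bases before the start that the table lists, 5′ to 3′ on the strand of the gene. CpG dinucleotides are in capitals. The windows lie at chr15:103034145-103034394 (plus strand, Hoxc4), chr11:96281655-96281904 (plus strand, Hoxb8), chr2:74711743-74711992 (plus strand, Hoxd3), chr19:44746351-44746600 (plus strand, Pax2) and chr4:44710695-44710944 (minus strand, Pax5), and all are inside the domains. The table holds only some Hox genes, and its starts of Hoxc4 and Hoxb8 lie downstream of those used for the promoter counts further on.
Hoxc4: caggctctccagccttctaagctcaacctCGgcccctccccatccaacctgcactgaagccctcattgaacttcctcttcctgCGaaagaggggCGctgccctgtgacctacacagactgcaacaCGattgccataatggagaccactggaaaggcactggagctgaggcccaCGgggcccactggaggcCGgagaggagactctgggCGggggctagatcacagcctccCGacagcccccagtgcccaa
Hoxb8: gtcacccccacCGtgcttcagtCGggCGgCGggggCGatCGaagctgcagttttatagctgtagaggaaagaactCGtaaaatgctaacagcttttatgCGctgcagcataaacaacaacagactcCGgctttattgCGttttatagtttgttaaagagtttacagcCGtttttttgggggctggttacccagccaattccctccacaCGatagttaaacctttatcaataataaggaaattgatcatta
Hoxd3: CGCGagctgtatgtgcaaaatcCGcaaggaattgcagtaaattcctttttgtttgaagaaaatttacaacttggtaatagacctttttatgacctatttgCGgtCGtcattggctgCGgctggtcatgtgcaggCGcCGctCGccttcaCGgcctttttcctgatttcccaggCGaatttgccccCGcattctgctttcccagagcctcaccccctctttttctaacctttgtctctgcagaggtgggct
Pax2: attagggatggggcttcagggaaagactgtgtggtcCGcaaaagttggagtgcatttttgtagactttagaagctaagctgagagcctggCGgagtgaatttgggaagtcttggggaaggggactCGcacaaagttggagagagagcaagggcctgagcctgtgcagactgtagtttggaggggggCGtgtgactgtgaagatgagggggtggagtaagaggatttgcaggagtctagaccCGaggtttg
Pax5: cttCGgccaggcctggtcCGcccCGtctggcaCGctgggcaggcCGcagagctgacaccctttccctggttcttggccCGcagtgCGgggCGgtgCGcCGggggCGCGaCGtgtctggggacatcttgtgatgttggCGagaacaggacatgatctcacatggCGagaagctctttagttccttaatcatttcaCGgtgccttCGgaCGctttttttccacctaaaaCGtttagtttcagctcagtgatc
These windows held 8 (Hoxc4), 12 (Hoxb8), 12 (Hoxd3), 5 (Pax2) and 19 (Pax5) CpG dinucleotides. The median was 11 over the 259 genes of the domains with an entry in the table, out of 346, and also 11 over the 16010 autosomal protein-coding genes with an entry, out of 20021. At least 10 CpG dinucleotides were present in 55.2% of the domain promoters and in 52.9% of all promoters. On this window the starts inside the widest domains were therefore about as rich in CpG as starts elsewhere.

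Reads in autosomal peaks (M, mega) ranged from 3.90 to 6.35 M in the cortex H3K27me3 libraries and from 2.99 to 18.2 M in those of gastrocnemius, from 3.90 to 21.0 and 15.6 to 27 M for H3K27ac, and from 9.32 to 18.6 and 9.03 to 14.8 M for H3K4me3. A pair of libraries stood apart. The H3K27ac library of cortex replicate 9 held 3.90 M reads, against 14.3 M in the next lowest, and had a peak in 112 of the 300 domains, against 175 to 200 in the others. The H3K27me3 library of gastrocnemius replicate 5 held 18.2 M reads, against 7.54 M in the next highest. The tissue labels were checked at gene starts. H3K4me3 within 1000 bp of the start was found in all cortex libraries for 18 of 20 cortex cell markers and in all gastrocnemius libraries for 17 of 19 muscle markers. Conversely, 10 of the 20 cortex markers had no H3K4me3 peak in any gastrocnemius library and 13 of the 19 muscle markers had none in any cortex library. Aqp4, an astrocyte water channel, had no H3K4me3 peak in any cortex library, and Neb, the muscle protein nebulin, had none in any gastrocnemius library.

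The domains were far wider than H3K27me3 regions usually were. The median width of the widest peak was 30.4 kb over the 300 domains and 7.20 kb over all 11827 regions, and the merged regions had medians of 78.9 kb and 17 kb. The widest peak exceeded 50 kb in 30 domains and 100 kb in 3. These 3 domains were the Hoxc, Hoxb and Hoxd clusters, whose genes encode the homeobox factors that give cells their position along the body axis. In the Hoxc domain (chr15:102851601-103148600) the widest peak measured 162 kb in the lowest cortex library, 176 kb at the median and 190 kb in the highest. The Hoxb domain (chr11:96119401-96393000) gave 85.6, 135 and 154 kb. In the Hoxd domain (chr2:74627201-74798200), which also holds the homeobox gene Evx2, it was 62.8, 105 and 118 kb. The lowest Hoxc library was above the highest library of either other cluster.

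The next 12 domains held mostly transcription factor genes. Pax2, a paired box factor of kidney and hindbrain (chr19:44581401-44861800), had a widest peak of 48.0 to 149 kb with a median of 99.0 kb, and Pax5, the paired box factor of B cells (chr4:44606201-44739000), one of 28.4 to 97.2 kb with a median of 70.2 kb. The Hoxa cluster with Evx1 (chr6:52145001-52327000) had a median of 68.4 kb. It was followed by the domains of Hmx1 (66.8 kb), Tbx5 (66 kb), Barhl2 (63.0 kb), Uncx (63.0 kb) and Tbx3 (62.6 kb), which encode homeobox and T-box factors of head, heart, neural tube, somites and limb. Rank 15 held Prdm16, a zinc finger regulator of brown fat and neural stem cells, at 61.4 kb with a range of 50.6 to 224 kb, and the testis gene Actrt2. Not all of the 15 were of this kind. Rank 11 (63.2 kb) held the starts of Ugt1a1, the bilirubin-conjugating enzyme, Mroh2a, the centromere chaperone Hjurp and the cold-sensing channel Trpm8. Rank 8 (chr8:120757201-121005600, 68.4 kb) held no protein-coding gene, and its nearest start, 20.8 kb away, was that of Irf8, a factor of myeloid cells.

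**Figure D1:**
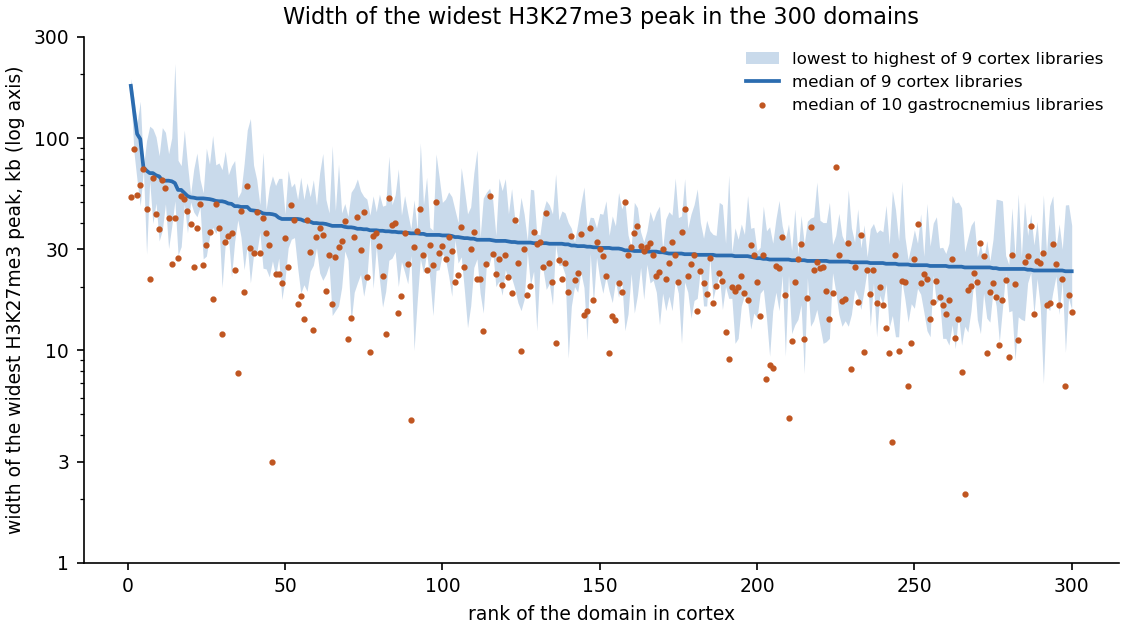
Width of the widest H3K27me3 peak in kb (log axis) against the rank of the domain in cortex. The line is the median and the band the lowest to highest of the 9 cortex libraries, and points are medians of the 10 gastrocnemius libraries (domains with a gastrocnemius median of 0 are not drawn). The cortex median falls from 176 kb at rank 1 to 23.6 kb at rank 300, and most gastrocnemius points lie within or below the band.

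The libraries differed in how far a domain was joined into 1 peak. The highest widest peak was 2.42 times the lowest at the median domain, with a range of 1.03 to 7.72 times, and it was under 1.5 times in 24 domains and over 3 times in 78. A domain was split into 5 peaks at the median, and 65 domains lay in 1 peak in at least 1 library but only 2 in every library. Over the domains, the median widest peak ran from 24.5 kb in cortex replicate 6 to 35.1 kb in replicate 4, and the same 2 libraries gave 5.4 and 8.4 kb over all 11827 regions. At the cut of 23.6 kb, 11 regions were tied, with 3 inside and 8 outside. The last 5 inside were a stretch in 4933402J07Rik (23.8 kb), Skor1 (23.8 kb), a stretch without a gene on chromosome 1 (23.6 kb), a stretch in Cdh23 and Vsir (23.6 kb) and Foxi1 (23.6 kb). The first 5 outside, all at 23.6 kb, held Alox12e, no gene, Ptf1a, Bcas1 and Lpar3.

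Factor genes made up much of the set. The merged domains spanned 26.5 Mb, 1.10% of the autosomal bases, and held the starts of 346 of 20021 autosomal protein-coding genes, 1.73%. Of 285 autosomal genes in 8 lists of developmental transcription factors (Hox, other homeobox, PAX, forkhead, T-box, SOX, GATA and ZIC, and bHLH), 152 had their start in a domain, 53.3%. At least 1 such gene was present in 105 of the 300 domains (35%) and in 210 of the 11827 regions (1.78%). These shares were not adjusted for width or for the number of starts. Counted by start, 152 of the 346 in the domains and 258 of the 3711 in the 11827 regions were of these genes. The share of domains with such a gene followed the rank, with 36 of the first 50 domains and 8 of the last 50. All 39 Hox genes were inside, in 4 domains. Of the other homeobox genes 70 of 113 were inside, with Evx2, Evx1, Hmx1 and Barhl2 at the widest domains, and of the PAX genes 8 of 9, with Pax2, Pax5, Pax3 and Pax7.

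The families were not equally represented. The GATA and ZIC factors had 6 of 9 genes in a domain (Gata4, Gata3, Zic1 and Zic4 first), the forkhead factors 15 of 32 (Foxa2, Foxa1, Foxd2 and Foxe3 first), and the T-box factors 6 of 16 (Tbx5, Tbx3, Tbx15 and Tbx18 first). The SOX factors had 2 of 18 (Sox14 and Sox1) and the bHLH factors 6 of 49 (Hand2, Olig2, Tal1 and Neurog2 first), although 39 of the 49 bHLH genes lay in one of the 11827 regions. Secreted Wnt, FGF and BMP ligands, which pattern the embryo, had 8 of 59, led by Bmp7, Wnt8b, Fgf3 and Fgf4. None of 29 autosomal genes for Polycomb subunits lay in a domain, and 3 of them lay in any of the 11827 regions.

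In all, 210 domains held a protein-coding start, 152 of them a single one and 58 of them 2 or more. The other 90 held none, of which 24 touched a protein-coding gene and 66 touched none. Chromosome 4 gave 41 of the 300 domains from 771 regions, or 53.2 per 1000 regions, the highest rate of any autosome. The domains had a median GC content of 47.8% against 45.9% over all 11827 regions and 41.9% over the autosomes. They held 14.1 CpG dinucleotides per kb at the median, against 10.8 and 8.51. The highest CpG density was that of the Skor1 domain, 30.6 per kb, and the Gata2 domain had 29 and the Hoxa cluster 24. A median of 20.9% of the bases were soft-masked as repeats, against 22.0% over all regions and 33.5% over the autosomes.

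A pair of domains went against this picture. Rank 5, in Sfi1 (chr11:3127001-3200000), and rank 235 (chr9:3000001-3038600), which held no gene and whose bases were 96% soft-masked, carried more than 100 reads per kb at the median of each of the 3 marks in each tissue, as did 8 other regions of the 11827. In the rank 5 domain the widest H3K27me3 peak measured 71.0 to 73.0 kb over the cortex libraries, the narrowest relative spread of the 15 widest. Its median H3K4me3 level in cortex was 1326 RPM (reads per M reads in autosomal peaks, after the TMM scaling given further on), above that of any Hox cluster there. Without both, the counts of called domains given further on were 63 and 90 of 201 for H3K27ac (30.4% and 45.3% of all regions) and 60 and 126 of 221 for H3K4me3 (36.4% and 47.8%), higher in cortex and in gastrocnemius.

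Most of the domain bases also lay in gastrocnemius peaks. H3K27me3 peaks covered a median of 80.5% of a domain there, against 47.6% over all 11827 regions, and of 87.1% and 64.5% in cortex. By the widest gastrocnemius peak alone, the kind of measure the domains were chosen on, the median was 31.3% of the domain. That value is not to be set against the cover in cortex. The widest cortex peak had a median of 30.4 kb and the merged domain one of 78.9 kb. A gastrocnemius peak was present in all 10 libraries in 292 of 300 domains (97.3%), against 48.8% of all regions, and in no library in 1 domain. At least 50% of the domain was covered in gastrocnemius in 262 domains. The spread between libraries was wide, from 65.0% in replicate 7 to 96.6% in replicate 5 for the median domain (SD of 10.4 percentage points over the 10 libraries), with 3.65 and 18.2 M reads in peaks, and the part of depth in this spread was not tested. Without replicate 5 the median was 78.7%. By the same rule applied to gastrocnemius, 146 of the 300 cortex domains (48.7%) touched one of the 300 widest gastrocnemius domains, and 133 of those 300 (44.3%) touched a cortex domain.

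**Figure D2:**
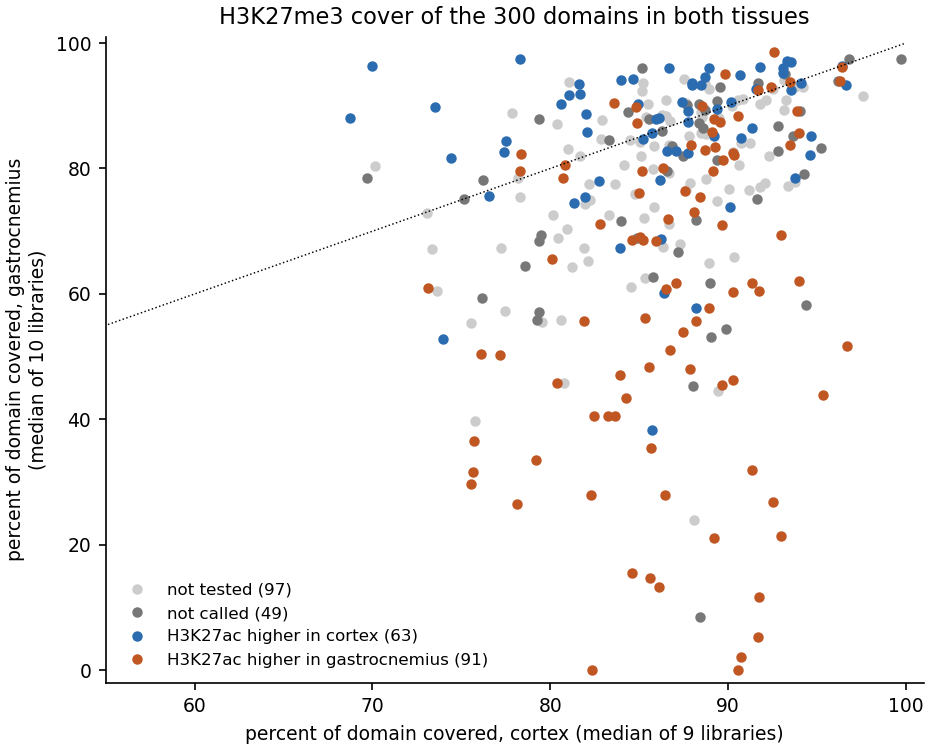
Percent of each of the 300 domains covered by H3K27me3 peaks, the median of 9 cortex libraries on the horizontal axis and of 10 gastrocnemius libraries on the vertical axis, coloured by the H3K27ac call between tissues. The dotted line marks equal cover. Domains with less than 50% cover in gastrocnemius number 38, and 31 of these are among the 91 with more H3K27ac in gastrocnemius.

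In 38 domains less than 50% was covered in gastrocnemius, and in 9 less than 20%. The 6 lowest included both domains at Casz1, a zinc finger factor of heart and neurons. The domain inside the gene (chr4:148901601-148954400) was covered by 85.6 to 97.0% in cortex and had no peak in any gastrocnemius library. The domain with the Casz1 start (chr4:148759601-148899400) was covered by 86.5 to 96% in cortex and by 0 to 13.3% in gastrocnemius, with a median of 2.15%. Jph2, which encodes the junctophilin that holds the muscle triad together, lay in a domain (chr2:163331001-163401000) with 80.8 to 96.6% in cortex and 0 to 16.9% in gastrocnemius, median 5.28%.

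The domain with H19, an imprinted non-coding RNA, the microRNA gene Mir675 that it contains, and Nctc1, but with no protein-coding start (chr7:142548401-142639000), had 73.1 to 94.3% in cortex and 0 to 18.1% in gastrocnemius, with a median of 0. The last members of the 6 were stretches in Btbd11, median 8.54% in gastrocnemius, and in Crhr2, a receptor for corticotropin-releasing hormone and the urocortins, median 11.7%. In gastrocnemius 29 domains had every library below every cortex library, against 15.1% of all regions, and none had every library above, against 0.617%. The median was higher in gastrocnemius in 87 domains. The cortex side of these counts was used in the choice, and nothing is read from them. At the other end, 66 domains were covered by at least 90% in gastrocnemius. The 6 highest were those of Gata2 (98.5%), Sfi1 (97.5%), Runx3 (97.5%), Ephb2 (97.5%), the complement genes C1qa, C1qb and C1qc with Epha8 (97.1%), and Lmx1b (96.9%).

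The Hox clusters are described in detail, with a cortex cover that the choice of domains had to make high. At the Hoxc cluster H3K27me3 covered 92.2 to 96.3% in cortex and 22.4 to 84.4% in gastrocnemius, with medians of 95.4% and 43.9%. The Hoxa cluster gave 94.8 to 97.7% and 39.2 to 77.8%, medians 96.7% and 51.7%. The Hoxb and Hoxd clusters kept more of the mark, with gastrocnemius medians of 93.9% and 82.4%. All 39 Hox promoters had an H3K27me3 peak within 1000 bp of the start in all 9 cortex libraries, and 23 had one in all 10 gastrocnemius libraries, 10 of 10 in Hoxb, 8 of 9 in Hoxd, 3 of 11 in Hoxa and 2 of 9 in Hoxc. H3K4me3 was present at 4 of the 39 in all cortex libraries and at 29 in all gastrocnemius libraries. H3K27ac was present at none in all cortex libraries and at 29 in all gastrocnemius libraries.

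The promoters of a cluster differed among themselves. In gastrocnemius, Hoxc13 and Hoxc12, at the end used most posteriorly in the body, had H3K27me3 in 10 libraries and H3K27ac in none. From Hoxc11 to Hoxc4 every promoter had H3K27ac in 10 libraries, while H3K27me3 was found in 8, 6, 7, 4, 2, 5 and 5 libraries at Hoxc11, Hoxc10, Hoxc9, Hoxc8, Hoxc6, Hoxc5 and Hoxc4. In the Hoxa cluster, Hoxa3 to Hoxa9 had H3K27me3 in 0 to 2 gastrocnemius libraries, with 0 at Hoxa4, whereas Hoxa2, Hoxa11 and Hoxa13 had it in 10 together with H3K27ac in 10. The Hoxd cluster had H3K27ac in 10 libraries only at Hoxd9, Hoxd8 and Hoxd3, and in none from Hoxd13 to Hoxd10. Hoxb13, separated from the rest of its cluster by a long gap, had H3K27me3 in 10 libraries and neither active mark in any, and Hoxb1 had H3K27ac in none and H3K4me3 in 1.

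**Figure D3:**
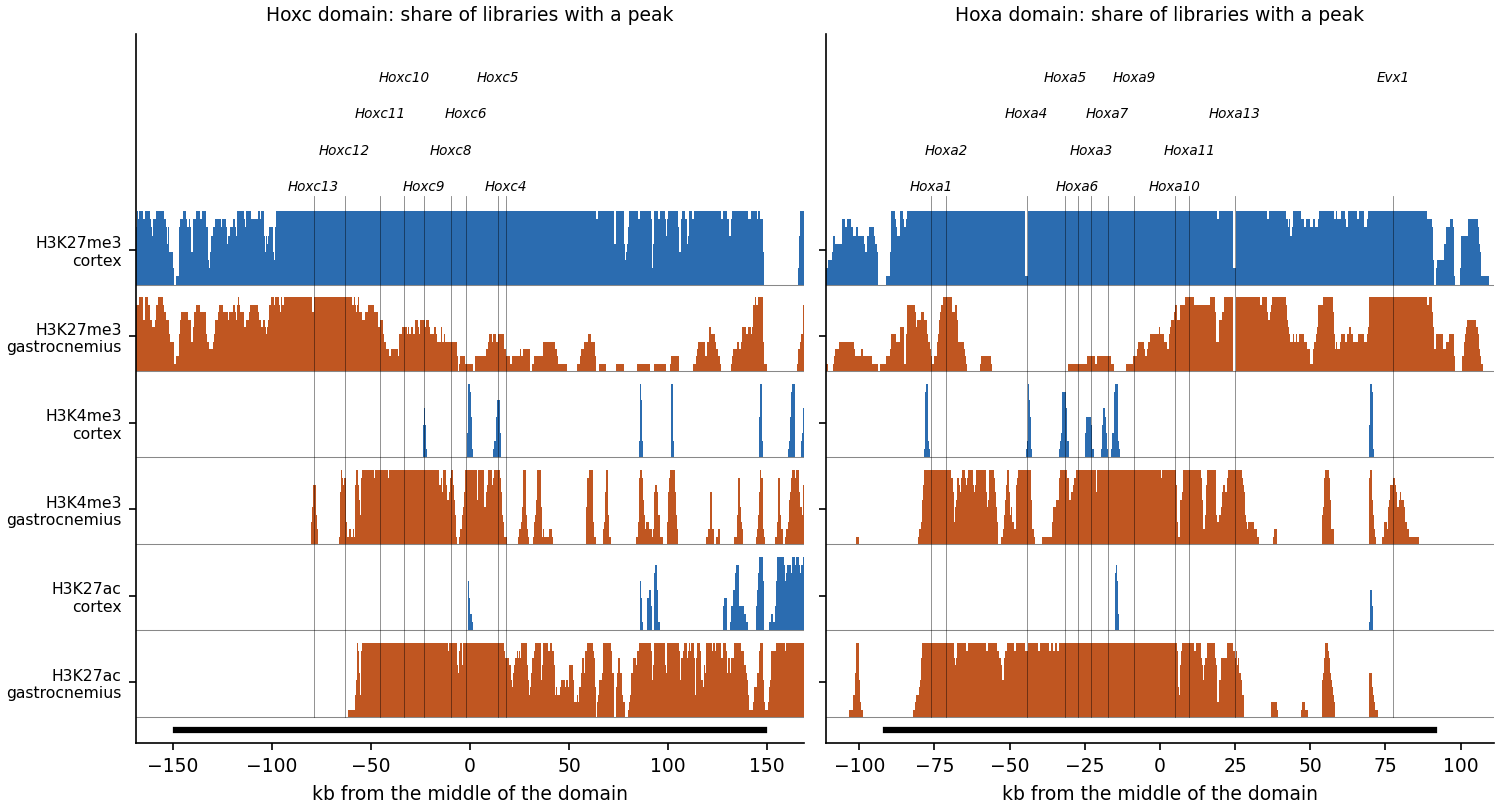
Share of libraries with a peak (bar height, from 0 to all libraries in each row) along the Hoxc and Hoxa domains, in kb from the middle of the domain, with cortex in blue and gastrocnemius in orange. Thin vertical lines mark gene starts and the black bar the merged domain. In cortex H3K27me3 spans both domains, and in gastrocnemius H3K27ac and H3K4me3 fill the stretch where H3K27me3 is found in few libraries.

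Active marks were present in many domains but covered little of them. H3K4me3 covered a median of 2.83% of a domain in cortex and 4.14% in gastrocnemius, and H3K27ac 1.96% and 2.37%. An H3K4me3 peak was found in all 9 cortex libraries in 182 domains (60.7%, against 21.6% of all regions) and in all 10 gastrocnemius libraries in 186 (62.0%, against 20.6%). An H3K27ac peak was found in all cortex libraries in 104 (34.7%, against 23.6%) and in all gastrocnemius libraries in 136 (45.3%, against 28.0%). No H3K27ac peak was found in any library in 69 domains in cortex and 80 in gastrocnemius. Wider regions have more room for a peak, and the shares were not adjusted for width.

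At the level of promoters the order was the other way. Within 1000 bp of the 346 starts in the domains, H3K4me3 was present in all cortex libraries at 134 (38.7%, against 63.0% of all 20021 starts) and H3K27ac at 61 (17.6%, against 62.2%). In gastrocnemius the numbers were 166 (48.0%, against 61.0%) and 103 (29.8%, against 60.4%). H3K27me3 was present in all cortex libraries at 330 of the 346 (95.4%, against 13.8%) and in all gastrocnemius libraries at 287 (82.9%, against 13.3%). Both H3K4me3 and H3K27me3, the pair of marks called bivalent, were present in all libraries of cortex at 130 starts (37.6%, against 7.28%) and of gastrocnemius at 134 (38.7%, against 7.03%). The choice of the domains had to make the cortex shares with H3K27me3 high, and nothing is read from their excess. Among starts with H3K27me3 in all libraries, H3K4me3 was also present in cortex at 130 of 330 in the domains and 1457 of 2754 over the autosomes. In gastrocnemius these were 134 of 287 and 1407 of 2668.

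In cortex, nearly all active chromatin of the domains lay under H3K27me3 peaks. Of the bases in H3K27ac peaks inside the domains, 89.4% (84.1 to 92.0% over 9 mice) also lay in an H3K27me3 peak of the same mouse and tissue, against 71.1% over all regions. In gastrocnemius the share was 52.1% (40.9 to 69.4% over 10 mice), against 31.8%. For H3K4me3 it was 97.1% (96.4 to 97.8%) in cortex and 77.6% (69.4 to 85.7%) in gastrocnemius, against 85.1% and 51.9%. Since the domains were chosen for wide H3K27me3 in cortex, the cortex shares had to be high, and the tissues were not tested against each other on them.

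H3K27ac and H3K4me3 were then compared between the tissues. Reads in the peaks inside a region were tested with edgeR's quasi-likelihood test over all 11827 regions after a filter of at least 10 reads in at least 9 libraries, and a difference was called at a Benjamini-Hochberg adjusted p (FDR) under 0.1. Levels are given as RPM, the reads per M reads, after scaling by the reads in autosomal peaks and a TMM factor. The deposited files list called peaks only, so a level of 0 means that no peak was called, not that no reads were present. For domains in which 1 tissue had no peak in any library no fold change is given. In its place stands the difference obtained when each library without a peak is given the read density of its weakest peak over the median length that the peaks of the other libraries cover, a setting chosen after seeing the data and named the filled difference below. Each SE is the size of the difference divided by the square root of its F statistic. In a filled difference the tissue without a peak has no measured spread, and the SE does not cover the choice of fill.

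For H3K27ac, 203 of the 300 domains passed the filter, of which 63 (31%) were higher in cortex, against 30.4% of all regions tested, and 91 (44.8%) were higher in gastrocnemius, against 45.3%. In this fit the domains thus had about the shares of all regions. Of the 203 domains, 38 (18.7%) were called higher in cortex with libraries that did not overlap, against 21.7% of all regions tested, and 71 (35%) higher in gastrocnemius, against 30.8%. In 14 of the 63 and 14 of the 91 the other tissue had no peak in any library, and such a domain could pass the filter only by differing. With the filled difference, whose direction is largely set by the fill where a tissue has no peak, all 63 and all 91 kept their call. With the lowest density over the whole width of the domain, 27 and 41 kept their call and 14 and 29 were called in the opposite direction. That setting left the shares of all regions. It called 36.3% of the 300 domains higher in cortex, against 52.8%, and 23.3% higher in gastrocnemius, against 17.4%. The filled difference tested 258 domains and called 108 and 100, against 42% and 36.6% of all regions tested that way, so that the share of calls higher in cortex went from 40.9% to 51.9%. Without cortex replicate 9, which had few reads, 74 and 92 of 215 were called, against 32.3% and 44.5% of all regions.

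The 6 named domains with more H3K27ac in cortex and non-overlapping libraries had no gastrocnemius peak at all, so their order rests on values that were not measured. At Grik3, which encodes a kainate-type glutamate receptor subunit (chr4:125396401-125505400), the level was 81.8 RPM in the lowest cortex library, 104 at the median and 141 in the highest, and no peak was called in any gastrocnemius library (filled difference of 1.69 ± 0.10 log2, SE). At Dlx5 and Dlx6, homeobox factors of forebrain interneurons (chr6:6839201-6885600), the cortex libraries gave 14.5, 63.6 and 214 RPM, a wide spread, and gastrocnemius none (1.75 ± 0.39 log2). At Olig2, the bHLH factor of the oligodendrocyte lineage (chr16:91201401-91248800), they gave 41.4, 46.3 and 50.1 RPM and gastrocnemius none (1.72 ± 0.08 log2). All 3 domains were covered by H3K27me3 in both tissues, with medians of 91.6, 93.5 and 96.6% in cortex and 92.7, 92.5 and 93.2% in gastrocnemius. The other 3 of the 6 were a stretch without a gene on chromosome 4 (65.8 RPM at the cortex median), a stretch in Kcnip1, a gene for a potassium channel subunit (48.6 RPM), and Tmem132e, a gene for a neural membrane protein (36.4 RPM), all without a gastrocnemius peak. With the fill over the whole width, the differences were 0.017 at Grik3, 0.0031 at Olig2 and 1.09 at Dlx5 and Dlx6, and those of the other 3 turned, to between -1.63 and -0.58 log2.

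All 4 Hox clusters had more H3K27ac in called peaks of gastrocnemius. The Hoxb cluster had no H3K27ac peak in any cortex library and 163, 215 and 257 RPM in the lowest, median and highest gastrocnemius library (filled difference of -1.56 ± 0.11 log2). The Hoxc cluster gave 7.12, 31.4 and 43.3 RPM in cortex and 593, 677 and 771 RPM in gastrocnemius, a difference of -4.52 ± 0.23 log2 (edgeR, FDR = 2.46e-12). The Hoxa cluster gave 0, 5.64 and 7.42 RPM in cortex and 443, 488 and 549 RPM in gastrocnemius, and the Hoxd cluster 0, 0 and 6.13 RPM against 75.1, 87.9 and 108 RPM. In all 4 clusters every gastrocnemius library was above every cortex library. With the fill over the whole width, the direction held at Hoxc (-4.52) and Hoxa (-3.73) and turned at Hoxb (0.54, called higher in cortex) and Hoxd (0.27, not called).

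Other named domains also had no H3K27ac peak in any cortex library. En1, a homeobox factor of hindbrain and ventral limb (chr1:120577801-120670400), had 27.2, 40.3 and 68.9 RPM in gastrocnemius. Gata3, a factor of T cells and several embryonic tissues (chr2:9809001-9912400), had 17.3, 21.9 and 29.7 RPM. A pair of stretches without a gene on chromosome 6 had medians of 37.2 and 34.6 RPM. The filled differences of these 4 ran from -1.82 log2 at En1 to -0.85 log2 at the stretch nearest to Cyp26b1. With the fill over the whole width all 4 turned, to between 1.24 at En1 and 2.36 log2 at Gata3. The stretch in Mgmt, given with H3K4me3, had no cortex peak of H3K27ac either. The median H3K27me3 cover in gastrocnemius was 46.3% at En1 and 65.6% at Gata3.

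For H3K4me3, 223 domains passed the filter, of which 60 (26.9%) were higher in cortex, against 36.3% of all regions tested, and 128 (57.4%) were higher in gastrocnemius, against 47.9%. Of the 223 domains, 37 (16.6%) were called higher in cortex and 92 (41.3%) in gastrocnemius with libraries that did not overlap, against 28.1% and 32.1% of all regions tested. The median difference was -0.75 log2 over the domains tested and -0.33 log2 over all regions tested. Here 7 of the 60 and 5 of the 128 had no peak in the other tissue, and all of both counts kept their call with the filled difference. With the lowest density over the whole width, 40 and 96 kept it and 13 and 14 were called in the opposite direction. In all, that setting called 55 of the 300 domains (18.3%) higher in cortex, against 9.9% of all regions, and 113 (37.7%) higher in gastrocnemius, against 12.8%, so the share toward cortex was above that of all regions and not below it. Fisher's exact test on the presence of a peak of at least 1 bp gave shares below those of all regions both ways. They were 6.54% toward cortex, against 12.1%, and 6.92% toward gastrocnemius, against 12.5%. Of the 173 domains tested for both marks, 79 (45.7%) were called higher in gastrocnemius for both, against 39.3% of the 2967 regions tested for both, and 39 (22.5%) higher in cortex, against 29%. The marks were called in opposite directions in 5 (2.89%, against 2.36%) and 1 (0.578%, against 1.04%).

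All 4 Hox clusters also had more H3K4me3 in gastrocnemius. The Hoxa cluster had 32.2, 45.9 and 53.0 RPM of H3K4me3 in cortex and 980, 1112 and 1272 RPM in gastrocnemius, a difference of -4.65 ± 0.10 log2, and the Hoxc cluster 24.5, 33.8 and 40.8 RPM against 771, 968 and 1215 RPM, a difference of -4.85 ± 0.12 log2. At the Hoxb cluster it was 3.22, 4.60 and 11.7 RPM against 310.1, 393 and 493.2 RPM (-6.09 ± 0.24 log2), and at the Hoxd cluster 13.2, 19.7 and 31.5 RPM against 270.5, 288 and 363 RPM (-3.89 ± 0.15 log2). No cortex library reached a gastrocnemius library at any of the 4. Among the domains without a cortex peak, Pax7, the paired box factor of muscle satellite cells (chr4:139775001-139892400), had 35.7, 45.4 and 61.6 RPM in gastrocnemius (filled difference of -1.44 ± 0.10 log2, and 1.74 with the fill over the whole width). Tlx1, a homeobox factor needed for the spleen, had 10.2, 22.1 and 32.1 RPM there, and its difference also turned with that fill, to 2.21. Jph2 had a peak in few cortex libraries, with 3.88 RPM at most, and 126, 187 and 341 RPM in gastrocnemius, a difference of -7.56 ± 0.62 log2, which fell in size to -3.13 with the fill over peak bases and to -1.76 with that over the whole width.

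The other domains named for H3K4me3 toward gastrocnemius were stretches without a start on chromosomes 5 and 11 and in Mgmt, a DNA repair gene. They had medians of 17.5, 7.55 and 6.70 RPM in gastrocnemius and no cortex peak, so their rank rests on values that were not measured. Their filled differences ran from -2.20 to -0.99 log2, smaller in size than the -4.85 at the Hoxc cluster. With the fill over the whole width they turned, to between 3.01 and 3.92 log2. Toward cortex the 6 named were all low in level, and their rank also rests on values that were not measured. The stretch in Kcnip1 had 13.2, 18.7 and 29.4 RPM in cortex, and Tfap2b, a factor of neural crest and kidney, had 10.6, 11.8 and 21.4 RPM. Pou4f3, a factor of inner ear hair cells, a stretch in Pax5, Csf3r, the receptor of granulocyte colony-stimulating factor, and a stretch near Olig1 had cortex medians of 9.72, 7.97, 8.0 and 6.06 RPM. None of these 6 had an H3K4me3 peak in any gastrocnemius library. The filled differences ran from 0.75 log2 at Tfap2b to 2.66 log2 at the stretch in Pax5. With the fill over the whole width all 6 turned, to between -4.62 log2 at Csf3r and -2.62 log2 at Tfap2b.

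**Figure D4:**
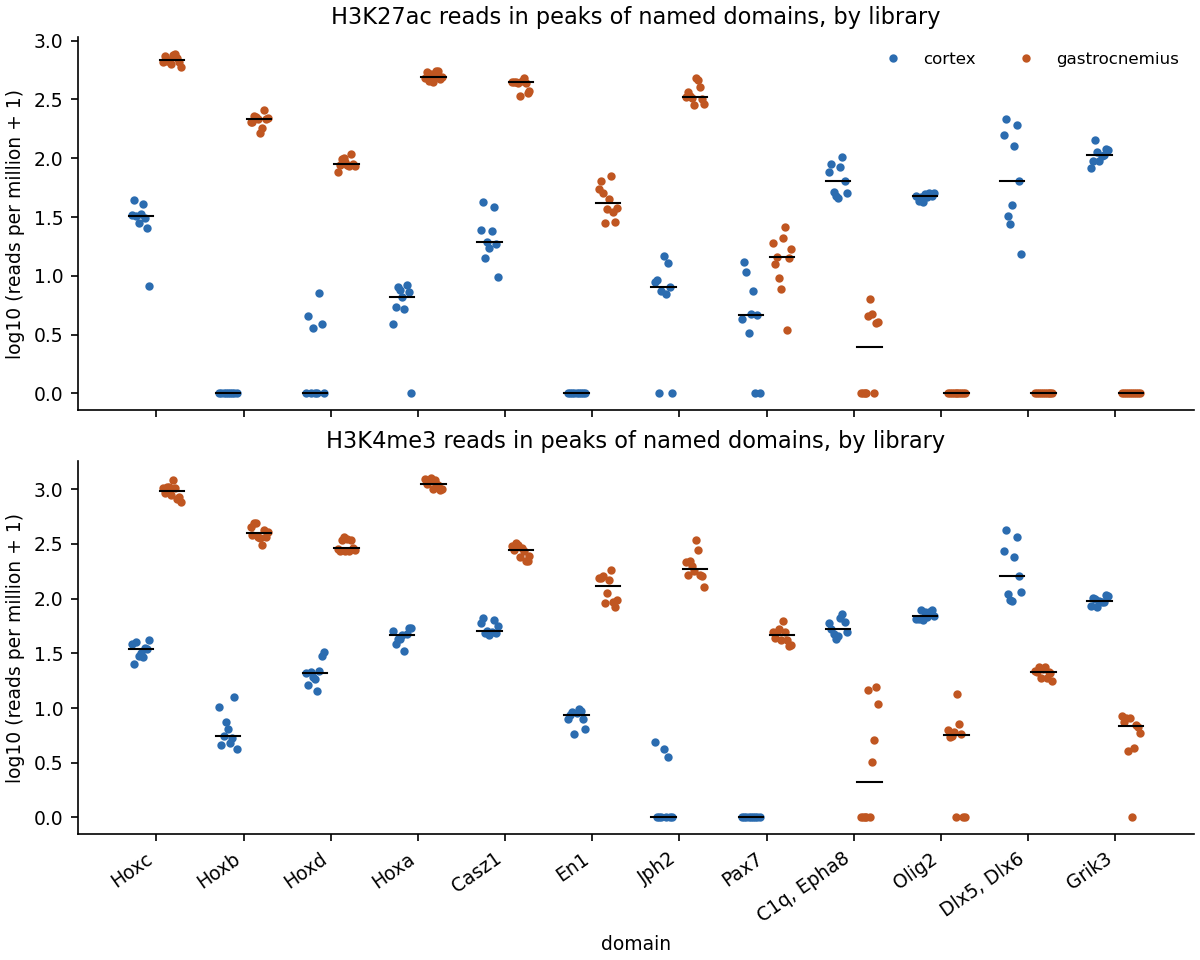
H3K27ac (top) and H3K4me3 (bottom) reads in the peaks of 12 named domains, as log10 of RPM plus 1, with a point for each library (9 cortex in blue, 10 gastrocnemius in orange) and a bar at the median. A value of 0 means that no peak was called. The 4 Hox clusters, Casz1, En1 and Jph2 are higher in gastrocnemius for both marks with no overlap in called peaks, and Olig2, Dlx5 with Dlx6 and Grik3 are higher in cortex. With the fill over the whole width, H3K27ac turned at Hoxb, Hoxd and En1 and was 0.0031 at Olig2 and 0.017 at Grik3, neither called.

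Lists of regulators of each tissue were read against these shares. Of 21 regulators of muscle development, 8 had their start in a domain (Pitx1, Pax3, Pax7 and Tbx15 first), in 8 domains. H3K27ac was higher in gastrocnemius in 6 of these, against 44.8% of the domains and 45.3% of all regions tested. It was higher in cortex in 1, against 31% and 30.4%. H3K4me3 was higher in gastrocnemius in 8 of 8, against 57.4% and 47.9%. Pax7 had no H3K4me3 peak in any cortex library, so it could pass the filter only by differing, and both of its differences turned with the fill over the whole width, to 1.62 for H3K27ac and 1.74 for H3K4me3. The domain higher in cortex holds Pax3 and Gm2102. An H3K27ac peak lay at the Gm2102 start in 7 cortex libraries and at the Pax3 start in 0. Over the 8 domains the median H3K27me3 cover in gastrocnemius was 48.2%, against 80.5% over all domains. Tbx15, a T-box factor of glycolytic muscle fibres (chr3:99225201-99284000), had 0, 2.78 and 6.31 RPM of H3K27ac in cortex and 89.3, 118 and 168 RPM in gastrocnemius, without overlap (edgeR, FDR = 3.23e-07). At Pitx1, a hindlimb factor, H3K4me3 gave 3.05, 8.09 and 17.2 RPM in cortex and 23.6, 30.4 and 49.2 RPM in gastrocnemius, a difference of -1.76 ± 0.24 log2 without overlap. Pax3, the paired box factor of muscle precursors, had H3K4me3 levels of 28.4 to 36.0 RPM and 33.2 to 70.7 RPM, which overlapped, with a difference of -0.70 ± 0.13 log2 (edgeR, FDR = 8.55e-05).

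Of 28 autosomal genes for factors of cortical neurons, 10 had their start in a domain, in 8 domains (Nkx2-1, Dlx5, Dlx6 and Emx2 first). H3K27ac was tested in 7 of these and was higher in cortex in 5 and in gastrocnemius in 2, against 30.4% and 45.3% of all regions tested, and H3K4me3 in 8, with 5 and 2, against 36.3% and 47.9%. The domain of Dlx5 and Dlx6, without a gastrocnemius H3K27ac peak, could pass that filter only by differing. Nkx2-1, a factor of ventral forebrain and thyroid, had no H3K27ac peak in any library of either tissue and H3K4me3 levels of 0 to 9.94 RPM in cortex and 0 to 7.45 RPM in gastrocnemius. Emx2, a homeobox factor of the dorsal forebrain, had 19.8, 27.8 and 53.2 RPM of H3K27ac in cortex and 9.54, 15.8 and 22.8 RPM in gastrocnemius, a difference of 0.98 ± 0.20 log2 (edgeR, FDR = 0.000195), and the libraries overlapped. The list held factors of several neuron types, and those higher in gastrocnemius, named after their values were seen, were the domains of Lhx6, a factor of interneurons, and Nr2f2, a nuclear receptor also used in veins and mesenchyme.

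Of 20 autosomal cortex cell markers, 3 had their start in a domain, namely Olig2, Slc32a1, the vesicular GABA transporter of inhibitory neurons, and Neurod2, a bHLH factor of excitatory neurons. Both active marks were higher in cortex in all 3, against 30.4% of all regions tested for H3K27ac and 36.3% for H3K4me3. Olig2 had no H3K27ac peak in any gastrocnemius library, so it could pass that filter only by differing, and its H3K27ac difference was 0.0031 with the fill over the whole width. H3K27me3 covered a median of 96.1% of them in gastrocnemius. At Neurod2 H3K27ac gave 96.9, 143 and 162 RPM in cortex and 15.1, 19 and 24.8 RPM in gastrocnemius. The only one of 19 muscle cell markers with its start in a domain was Pax7. In bulk tissue, a mark carried by fewer cells and less of the mark in each cell cannot be told apart, and this holds for each level given here. The C1q domain on chromosome 4, with the complement genes that microglia express beside Epha8, had 44.7, 63.5 and 102 RPM of H3K27ac in cortex and 0, 1.49 and 5.34 RPM in gastrocnemius, and was covered by H3K27me3 by 84.3 to 98.6% in cortex.

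The gastrocnemius H3K27me3 cover differed between the classes of H3K27ac calls. It had a median of 88.6% in the 63 domains with more H3K27ac in cortex, 61.7% in the 91 with more in gastrocnemius, 82.1% in the 49 not called and 80.6% in the 97 not tested. Over all regions tested the medians were 83% in the first class and 0 in the second. Less than 50% was covered in 31 of the 91 domains (34.1%) and in 81.3% of all regions of that class. These are descriptions over regions that share the same libraries, and no test was made on them.

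The domains of Casz1 and Grik3 show both classes. At Casz1, H3K27ac gave 8.84, 18.2 and 41.3 RPM in cortex and 336, 440 and 478 RPM in gastrocnemius, a difference of -4.23 ± 0.25 log2 (edgeR, FDR = 1.31e-11), and H3K4me3 45.2, 50 and 64.9 RPM against 219, 275 and 322 RPM, a difference of -2.34 ± 0.09 log2. No gastrocnemius library was within the cortex range for either mark. At Grik3 H3K4me3 gave 83.2, 93.8 and 108 RPM in cortex and 0, 5.87 and 7.45 RPM in gastrocnemius, a difference of 4.23 ± 0.34 log2 that was 2.13 with the fill over the whole width. There H3K27me3 spanned the domain in both tissues, with 80.9 to 94.5% in cortex and 83.8 to 100% in gastrocnemius.

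**Figure D5:**
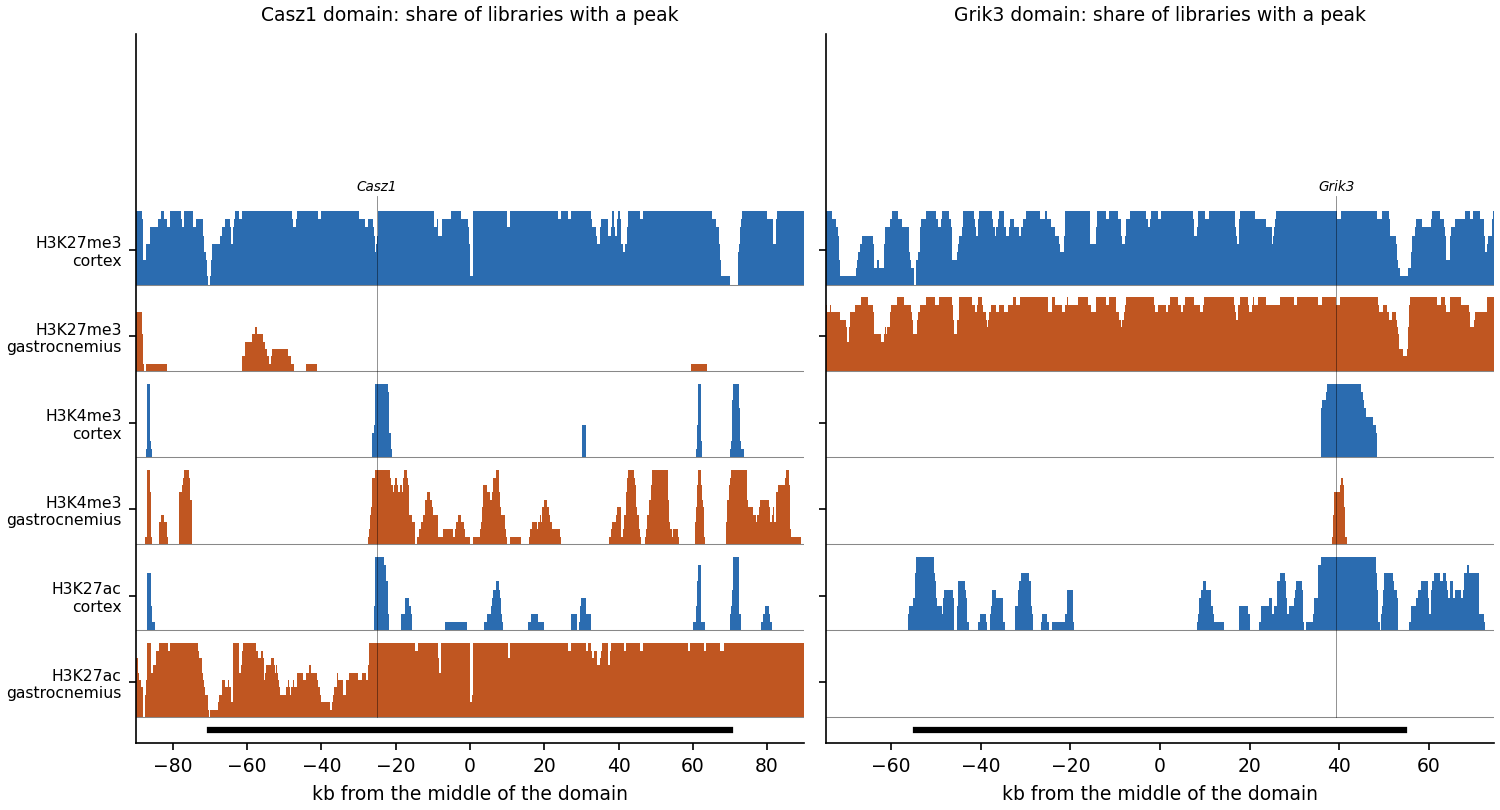
Share of libraries with a peak (bar height, from 0 to all libraries in each row) along the Casz1 and Grik3 domains, in kb from the middle of the domain, with cortex in blue and gastrocnemius in orange. Thin vertical lines mark gene starts and the black bar the merged domain. At Casz1 the gastrocnemius row of H3K27me3 is nearly empty while H3K27ac spans most of the domain, and at Grik3 H3K27me3 spans the domain in both tissues with no H3K27ac peak in gastrocnemius.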

How the data were processed

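H3K4me3, H3K27ac and H3K27me3 were profiled by ChIP-seq in 57 libraries, 9 of cortex and 10 of gastrocnemius for each mark. The authors aligned the reads with BWA to mm10, filtered them with SAMtools, and called peaks in each library on its own with epic2, with a larger allowed gap for H3K27me3. The deposited files give for each called peak the read count, a whole number that was not normalised, and a score. No value exists outside called peaks, so a domain without a peak counts as 0. The authors' score of each peak served here only to drop the 25% of peaks with the lowest scores in 1 alternative.

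The members and the gene lists were chosen with earlier results of these data known. Peaks were merged on chromosomes 1 to 19, and the reads of a peak were apportioned to regions by overlap. H3K27ac and H3K4me3 were compared between tissues with edgeR 4.0.16 (R 4.3.3; quasi-likelihood test, TMM, library size from autosomal peak reads), without a block, in regions with at least 10 reads in at least 9 of 19 libraries, and p-values were adjusted by Benjamini-Hochberg over all regions tested, with a threshold of 0.1. The files hold called peaks only, so they do not give the depth of whole libraries, and the read totals above are those in peaks. The paper shows the number of aligned reads in a supplementary figure, which was not used here. Alternatives used DESeq2 1.42.0, other normalisation and filters, other settings of the fill, and omission of each library. Named were the 15 widest domains, the 5 domains on either side of the cut, the 6 with the largest non-overlapping change per mark and direction, the 6 with the lowest and highest gastrocnemius H3K27me3 cover, and up to 4 genes per list. The procedure was also run on simulated counts. They spread less between libraries than the data and left no tissue without reads, so its performance here was not tested. The deposited names tie both tissues to the same 9 mice, but the deviations of a mouse's libraries from the group means correlated little (median 0.018 for H3K27ac, -0.053 to 0.123, and 0.012 for H3K4me3). Each replicate is a separate mouse. The values of 1 domain that the naming rule gives are not reported here.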

Additional observations from a re-analysis of the deposited data

Results flagged for a closer look

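Among 79 groups of library values, 13 had 1 library far from the others, where chance gives about 1 in 20. The pair of libraries that stood apart in depth account for 7 of these. In H3K27ac of cortex, replicate 9 had 3.904 M reads in autosomal peaks (next lowest 14.28 M), a peak in 112 domains (175), and a median cover of 0% (1.694%). In H3K27me3 of gastrocnemius, replicate 5 had 18.24 M reads (next highest 7.544 M) and a median widest peak of 51.6 kb (32 kb), and it gave the highest cover of the H19 domain, 18.1% (5.076%), and of the stretch in Crhr2, 58.69% (31.3%). The highest gastrocnemius H3K27ac library had 27.04 M reads (20.98 M).

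The remaining 5 concern single domains. The lowest cortex library had a widest peak of 71 kb in the Sfi1 domain (next 72.6 kb), and the highest had 224.4 kb in the Prdm16 domain (75.6 kb). In gastrocnemius 1 library had 51.08 RPM of H3K27ac at the domain of rank 144 on chromosome 6 (38.97 RPM). In cortex 1 library had 12.69 RPM of H3K4me3 at Csf3r (8.897 RPM). For gastrocnemius H3K27me3 cover, 1 library had 81.01% at Lmx1b, the lowest (92.2%). The cause of none of these was tested.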

How the results depend on the processing

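The files limit every comparison to called peaks. Of 75 named differences between tissues, 35 changed sign only when each library without a peak was given its lowest read density over the whole width of the domain, which gives an uncalled library reads where a called library has none outside its peaks. For H3K27ac these were 0.54 (the Hoxb cluster), 0.27 (the Hoxd cluster), 0.66 (Pax2), -2.14 (Hmx1), -3.57 (Barhl2), 3.42 (the stretch in Cdh23 and Vsir), -0.58 (rank 75), -1.63 (the stretch in Kcnip1), -0.80 (Tmem132e), 1.24 (En1), 1.66 (rank 145), 1.28 (rank 144), 2.36 (Gata3), -1.17 (rank 281), 1.62 (Pax7), 2.69 (Tlx1), 0.30 (rank 76), 2.05 (rank 236), 2.96 (the stretch in Mgmt), -0.11 (Ephb2) and -0.55 (Lmx1b). For H3K4me3 these were 1.84 (Uncx), -3.57 (the stretch in Kcnip1), -2.62 (Tfap2b), -3.90 (Pou4f3), -3.02 (the stretch in Pax5), -4.62 (Csf3r), -3.51 (rank 281), 1.74 (Pax7), 2.21 (Tlx1), 3.57 (rank 76), 3.01 (rank 236), 3.92 (the stretch in Mgmt), 3.23 (the stretch in Btbd11) and -0.52 (the C1q domain). All of these are log2 of cortex over gastrocnemius. Under that setting the H3K27ac differences of Olig2 (0.0031), Grik3 (0.017), the C1q domain (0.24) and rank 8 (-0.56), and the H3K4me3 difference of Barhl2 (-0.42), missed the threshold. With the same density over the length that peaks cover, a setting chosen after seeing the data, none changed sign. Under the first of these settings 109 domains (36.3%) had more H3K27ac in cortex and 70 (23.3%) in gastrocnemius, against 52.8% and 17.4% of all regions, so the order of the counts turned and the shares left those of all regions. Under the second they were 108 and 100, against 63 and 91 as reported.

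A Fisher's exact test on the presence of a peak of at least 1 or 1000 bp gave 51 and 49 domains with more H3K27ac in cortex and 43 and 47 in gastrocnemius, which turned the order (at 1 bp 21% and 17.6% of all regions), 17 and 15 with more H3K4me3 in cortex, and 18 and 20 with more H3K4me3 in gastrocnemius. At 1 bp the H3K4me3 counts were 6.54% and 6.92% of 260 domains, against 12.1% and 12.5% of all regions, so the share toward gastrocnemius was below that of all regions and not above it. Without the 25% of peaks with the lowest scores, 37 of 185 domains (20%, against 33.5% of all regions) had more H3K4me3 in cortex and 105 (56.8%, against 47.2%) in gastrocnemius. The cause was not tested. Of the 300 domains, 172 were chosen again by the bases covered by peaks and 155 by merged width. The median gastrocnemius H3K27me3 cover was 31.3% by the widest peak alone and 92.8% in the stretch shared by peaks of all 9 cortex libraries. Without 1 library each, the counts were 61 to 74 and 87 to 95 for H3K27ac (cortex, gastrocnemius), 59 to 62 and 122 to 129 for H3K4me3, the cover 78.7 to 82.9%, and 273 to 283 domains were chosen again. Libraries without an S number in their deposited names gave 78 and 82 of 217 for H3K27ac (35.4% and 39.2% of all regions), 55 and 126 of 223 for H3K4me3 (35.4% and 46.7%), and a cover of 73.2%.

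With the mouse as a replicate block, 66 and 95 of 200 domains were called for H3K27ac (31% and 44.4% of all regions) and 59 and 126 of 223 for H3K4me3 (36.7% and 46.5%), and with the label number as the block 65 and 90 of 202 (30.9% and 44.2%), and 56 and 125 of 223 (36.8% and 46.1%). The pairing lost the H3K4me3 call of Uncx, and the label number also that of Pax7 H3K27ac. Pax7 is 1 of the 6 muscle regulator domains counted as higher in gastrocnemius for H3K27ac. Of the named differences, others also missed the threshold, in the same direction: 11 of 1416 fits without 1 library (all H3K4me3 at Barhl2), 3 without S-numbered libraries (Pax7 H3K27ac, Barhl2 and Uncx H3K4me3), 3 with the whole count of touching peaks (both marks at Barhl2, Crhr2 H3K4me3), 3 without low-scoring peaks (both marks at Barhl2, the inner Casz1 domain H3K4me3), and 12 and 15 by Fisher's test at 1 and 1000 bp, among them Jph2 and Pax7 H3K27ac and Olig2 and Grik3 H3K4me3 at both lengths.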
